A study of Mus musculus with 2 samples.

Results

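The miR-99/100 and miR-125 genes were followed in small RNA of the mouse embryonic face. Their 6 genes, Mir99a, Mir99b, Mir100, Mir125a, Mir125b-1 and Mir125b-2, were chosen by name from the 1973 miRNA genes in the count files and grouped by their 3 genomic loci. All 6 had a row and counts in both libraries. The samples were facial prominences, the tissue buds that form the face and jaws, of strain B6NCrl embryos at embryonic day 14.5. There was 1 group with 2 biological replicates, here called replicate 2 and replicate 1, and no treatment, mutant allele or transgene is named in the labels. Each replicate is described as one face from one pup, taken on different days, while the sex is given as pooled, so whether a replicate holds 1 embryo or several is not settled. With no second condition the data give the levels of these genes in one tissue, and p-values compare only the libraries.

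MicroRNAs are short RNAs cut from a hairpin precursor, and bases 2 to 8 of the mature strand, the seed, pair with target messenger RNAs. The miR-99/100 family is known to repress mTOR and other growth pathway genes, and miR-125 is the vertebrate relative of lin-4, a developmental timing miRNA first studied in Caenorhabditis elegans. In vertebrates the miR-99/100 and miR-125 genes sit in clusters with a let-7 gene, and miR-125 and let-7 both repress Lin28, a protein that blocks let-7 maturation.

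The mature sequences are shown because shared bases decide both the family groups and which reads can be placed at one gene. They come from RefSeq (build GRCm38.p6), where all 6 genes matched with 12 mature entries. Capitals mark the seed, and sequences run 5′ to 3′.
miR-99a-5p: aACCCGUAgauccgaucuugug
miR-100-5p: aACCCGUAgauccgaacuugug
miR-99b-5p: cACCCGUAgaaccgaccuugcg
miR-125a-5p: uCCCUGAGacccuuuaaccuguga
miR-125b-5p: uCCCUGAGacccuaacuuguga
Counting positions from 1 at the 5′ end, miR-99a-5p and miR-100-5p are identical at 21 of 22 bases and differ by U16A. From miR-99a-5p to miR-99b-5p the differences are A1C, U11A, U16C and U21C, all outside the seed. Of the 1738 mature entries in the table, 3 carry the seed ACCCGUA, and they are these 3. The seed CCCUGAG is carried by the entries of 6 genes, namely Mir125a, Mir125b-1, Mir125b-2, Mir351, Mir6367 and Mir6394. The first 13 bases are shared by miR-125a-5p and miR-125b-5p.

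Mir125b-1 and Mir125b-2 give the same miR-125b-5p, so a read of that mature strand fits both genes equally well. Capitals in the hairpin of Mir125b-1 (chromosome 9) mark miR-125b-5p, which spans positions 15 to 36 of 77, and the opposite arms of both hairpins follow with their seeds in capitals.
Mir125b-1 hairpin: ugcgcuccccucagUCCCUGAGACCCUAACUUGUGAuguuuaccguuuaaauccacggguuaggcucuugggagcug
miR-125b-1-3p: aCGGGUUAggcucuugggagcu
miR-125b-2-3p: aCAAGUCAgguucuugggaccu
In the GENCODE M21 miRNA transcripts, miR-125b-5p lies in 2 genes, while each of the other 10 mature entries of the 6 genes lies in 1 gene. The longest stretch shared by the Mir125b-1 and Mir125b-2 transcripts is 24 bases. The longest stretch shared with any other miRNA gene is 16 bases for Mir99a and for Mir100, which share it with each other, 11 for Mir99b and 14 for Mir125a. The files have the layout of counts limited to uniquely placed reads, so the counts of both Mir125b genes leave out reads lying wholly in the shared stretch. Their counts are therefore lower limits of the reads from these loci, and the counts do not tell the 5p arm from the 3p arm. Levels scaled to a library total are not such limits, since the total also leaves out reads at several positions.

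Gene-strand miRNA counts totalled 6602050 in replicate 2 and 2719153 in replicate 1, and levels are given as CPM, counts scaled to that total. Reads with several positions, which enter no gene, took 28.5% of the reads of replicate 2 and 29.8% of those of replicate 1. Shares and ranks below therefore cover counted reads only, and miRNAs with several gene copies can stand too low in them. Reads are under 30 bases and hold about one mature miRNA each, so counts were not divided by gene length, and levels of different miRNAs still carry the biases of adapter ligation. Markers of cartilage, epithelium, mesenchyme, endothelium, skeletal muscle and blood each summed to at least 1614 CPM in both libraries. The liver marker Mir122 stood at 5.6 CPM in replicate 2 and 12.5 CPM in replicate 1, and the 7 neural markers with a row summed to 700.2 CPM in replicate 2 and 954 CPM in replicate 1. Of these 7, 3 were detected in both libraries and 4 were at 0, among them the 3 copies of Mir124a, which share stretches of 31 or 32 bases with each other, so that their counts can be lost as reads at several positions. In whole tissue, fewer cells of a type and less RNA per cell cannot be told apart.

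The 6 genes together held 12.4% of the miRNA counts in replicate 2 and 10.9% in replicate 1, and most of this came from the miR-99/100 genes. Mir99a, Mir100 and Mir99b summed to 115859 CPM in replicate 2 and 101004 CPM in replicate 1, which is 93.5% and 92.4% of the counts of the 6 genes. Mir125a, Mir125b-1 and Mir125b-2 summed to 7998 CPM in replicate 2 and 8355 CPM in replicate 1. The imbalance between the families can include the loss of shared miR-125b reads, whose size the counts do not give.

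Mir99a, which lies in the long noncoding gene Mir99ahg, was the highest of the 6. It had 473867 counts (71776 CPM) in replicate 2 and 171666 counts (63132 CPM) in replicate 1, a mean of 67454 ± 6112 CPM (SD, n = 2). It took 7.18% of all miRNA counts in replicate 2, with a 95% Wilson interval from 7.16% to 7.20%. In replicate 1 it took 6.31%, with an interval from 6.28% to 6.34%. By these counts, which leave out reads at several positions, it ranked second among all miRNA genes in each library. It stood below Mirlet7i and above Mir335, and its CPM range overlapped neither neighbour.

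Mir100, whose mature strand differs from that of Mir99a at a single base, followed with 162125 counts (24557 CPM) in replicate 2 and 58170 counts (21393 CPM) in replicate 1. Mir99a was 2.92-fold and 2.95-fold above Mir100 in replicates 2 and 1, a ratio nearly equal in both libraries. The mean of Mir100 was 22975 ± 2237 CPM (SD, n = 2), at place 12 by mean CPM. Its neighbours by mean level were Mir411 (24405 ± 1935 CPM) and Mir487b (21350 ± 3343 CPM), and both overlapped it in range. Within each library, however, Mir411 stood above Mir100 and Mir487b below it.

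Mir99b, the family member with a changed first base, had 128915 counts (19527 CPM) in replicate 2 and 44808 counts (16479 CPM) in replicate 1. Its mean was 18003 ± 2155 CPM (SD, n = 2), at place 16. In each library Mir100 was above Mir99b, by 1.26-fold in replicate 2 and 1.30-fold in replicate 1, and their ranges did not overlap. Mir23a and Mir143, next to Mir99b in mean level, overlapped it in range. Within each library Mir23a stood above Mir99b, while Mir143 stood below it in replicate 2 only.

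Mir125a was the highest counted miR-125 gene, and its CPM on library totals was close in both libraries. It had 39616 counts (6001 CPM) in replicate 2 and 16099 counts (5921 CPM) in replicate 1, a mean of 5961 ± 56.5 CPM (SD, n = 2), and it held place 37 in each library. Mir369 and Mir98, next to it in mean level, overlapped it in range.

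Mir125b-1 had 8827 counts (1337 CPM) in replicate 2 and 4601 counts (1692 CPM) in replicate 1, a mean of 1515 ± 251 CPM (SD, n = 2). Mir125b-2 had 4358 counts (660.1 CPM) in replicate 2 and 2019 counts (743 CPM) in replicate 1, a mean of 701 ± 58.3 CPM (SD, n = 2). Of the reads that could be placed, Mir125b-1 thus had 2.03 times those of Mir125b-2 in replicate 2 and 2.28 times in replicate 1. By mean CPM they stood at places 91 and 116, beside Mir92-1 and Mir1983 for Mir125b-1 and beside Mir665 and Mir3071 for Mir125b-2. Each of these neighbours overlapped in range, though Mir1983 stood below Mir125b-1 within each library. The order of the 6 genes was the same in both libraries, and no neighbouring pair in it overlapped. An exact test over samples cannot separate these levels, since the smallest p that 2 libraries allow is 0.5.

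**Figure D1:**
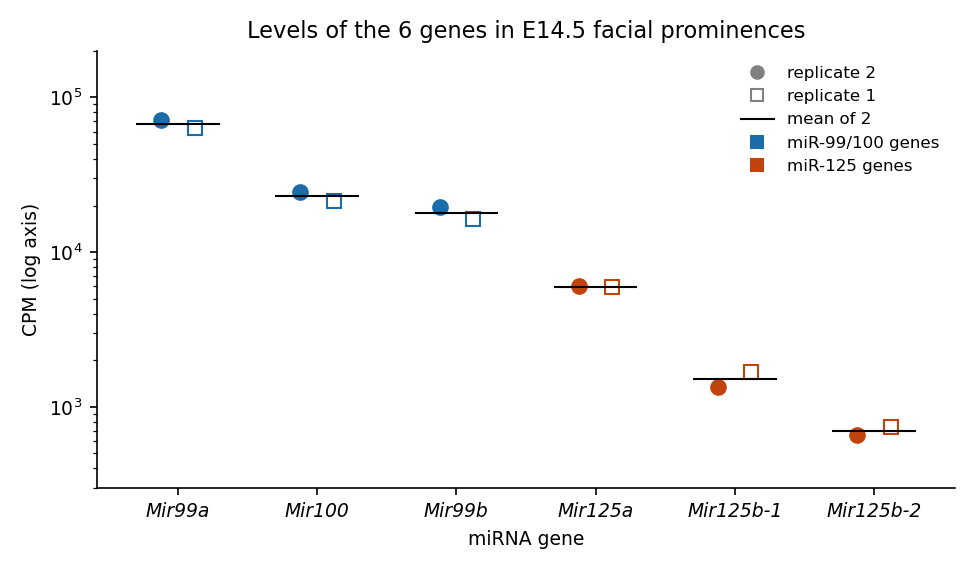
Level of each of the 6 genes in CPM on a log axis; filled circles are replicate 2, open squares replicate 1, the line is their mean, and colour gives the seed family. The 3 miR-99/100 genes (16479 to 71776 CPM) lie above the 3 miR-125 genes (660.1 to 6001 CPM) in both libraries. Counts of Mir125b-1 and Mir125b-2 leave out reads lying wholly in their shared stretch.

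Other genes with a related mature strand were lower than Mir99a and partly level with Mir125a. Mir351, an X-linked gene with the miR-125 seed that shares its first 8 bases with miR-125a-5p, stood at 7094 CPM in replicate 2 and 5795 CPM in replicate 1. Its range overlapped that of Mir125a, at 1.18 times its counts in replicate 2 and 0.979 times in replicate 1. Mir6367 and Mir6394, which carry the same seed, had 0 counts in each library, where 3 counts would be 0.454 CPM in replicate 2 and 1.10 CPM in replicate 1. Stretches that they share with other genes were not searched for, so 0 counts need not mean absence. The placed counts of genes with the seed CCCUGAG summed to 15092 CPM in replicate 2 and 14150 CPM in replicate 1.

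The miR-10 genes of the Hox clusters are relatives of the miR-99/100 family with a different seed. They are printed here for the stretch of 11 bases that miR-10a-5p shares with miR-100-5p, with the seed in capitals.
miR-10a-5p: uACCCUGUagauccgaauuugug
miR-10b-5p: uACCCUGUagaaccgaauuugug
Mir10b stood at 6066 CPM in replicate 2 and 6138 CPM in replicate 1, and Mir10a at 2585 CPM and 4329 CPM in the same order. Mir99a was 11.8-fold above Mir10b in replicate 2 and 10.3-fold in replicate 1.

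Each miR-99/100 gene shares a locus and a strand with a miR-125 gene, and in all 3 loci the miR-99/100 gene had more counts. On assembly mm10, with GENCODE M21, Mir99a (ENSMUSG00000065530) lies on chromosome 16 at 77598936 to 77599000 and Mir125b-2 (ENSMUSG00000065472) at 77646273 to 77646343, both on the plus strand in introns of Mir99ahg. The last 4 bases of Mir125b-2 also overlap an exon of the unconfirmed gene C130023A14Rik. Mir100 (ENSMUSG00000093011) lies on chromosome 9 at 41531425 to 41531504 and Mir125b-1 (ENSMUSG00000093354) at 41581926 to 41582002, both on the plus strand in introns of the noncoding genes 3110039I08Rik and Gm49317. Mir100 also lies in an exon of the minus-strand noncoding gene Gm48742, and Mir125b-1 in an exon of Gm28119.

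Mir99b (ENSMUSG00000065396) lies on chromosome 17 at 17830188 to 17830257 and Mir125a (ENSMUSG00000065479) at 17830812 to 17830879, on the plus strand within Spaca6, a protein-coding gene known for its part in sperm and egg fusion. Mir99b is intronic, and 47 of the 68 bases of Mir125a overlap a noncoding exon of a Spaca6 transcript. The loci differ in size: they span 47.4 kb on chromosome 16, 50.6 kb on chromosome 9 and 0.692 kb on chromosome 17.

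The loci on chromosomes 9 and 17 had nearly equal sums and the one on chromosome 16 far more. Mir99a with Mir125b-2 summed to 72436 CPM in replicate 2 and 63875 CPM in replicate 1, which is 58.5% and 58.4% of the 6 genes. Mir100 with Mir125b-1 summed to 25894 CPM in replicate 2 and 23085 CPM in replicate 1. Mir99b with Mir125a summed to 25527 CPM in replicate 2 and 22399 CPM in replicate 1. The CPM ranges of these last sums overlapped, though within each library the chromosome 9 sum was the higher. The range of chromosome 16 lay above both.

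The ratio of the miR-99/100 gene to its miR-125 partner differed between loci by more than between replicates. As a log2 ratio of counts, Mir99a over Mir125b-2 was 6.76 in replicate 2 and 6.41 in replicate 1, or 109-fold and 85-fold. Mir100 over Mir125b-1 was 4.20 in replicate 2 and 3.66 in replicate 1, or 18.4-fold and 12.6-fold. Mir99b over Mir125a was 1.70 in replicate 2 and 1.48 in replicate 1, or 3.25-fold and 2.78-fold. The pairs with the higher ratios, on chromosomes 16 and 9, are those whose miR-125 gene holds the shared stretch of 24 bases, and its part in the ratios was not tested. On chromosome 17 the ratio was above 0 in both libraries, and neither gene shares 20 bases with another miRNA gene. Only miRNA transcripts were compared and the rest of the genome was not searched. The part of reads at several positions in this ratio was therefore not tested either.

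**Figure D2:**
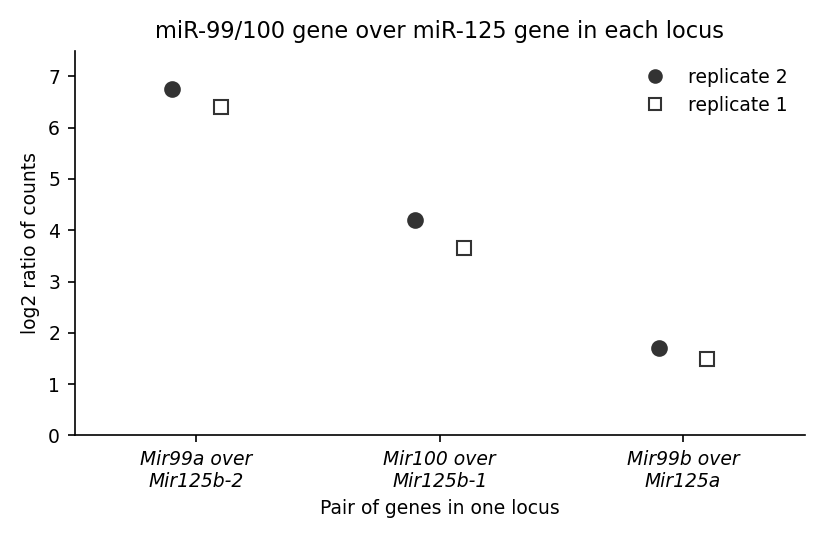
Log2 ratio of counts of the miR-99/100 gene over the miR-125 gene in each locus, for replicate 2 (filled circles) and replicate 1 (open squares), with counting standard errors that are smaller than the symbols. The ratio is above 0 in each locus, from 1.48 to 6.76, and higher in replicate 2 than in replicate 1 in all 3. The Mir125b-1 and Mir125b-2 counts leave out reads lying wholly in their shared stretch, whose part in the ratios was not tested.

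The let-7 genes between them had few placed reads on chromosomes 16 and 9. Mirlet7c-1, 0.656 kb from Mir99a, stood at 154 CPM in replicate 2 and 141 CPM in replicate 1, so Mir99a was 465-fold and 447-fold above it. Mirlet7a-2, 5.21 kb from Mir100, stood at 204 CPM in replicate 2 and 186 CPM in replicate 1, and Mir100 was 121-fold and 115-fold above it. Both let-7 genes share a stretch of 23 bases with another miRNA gene, so their counts are lower limits in the same way as those of the Mir125b genes.

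On chromosome 17 Mirlet7e, between Mir99b and Mir125a, has no row in the files. Its site lies within Gm25927, a miRNA gene annotated on the minus strand, which had 0 gene-strand counts. The opposite-strand column of Gm25927, which is the strand of Mirlet7e, held 33542 counts in replicate 2 and 14032 counts in replicate 1. Scaled to the gene-strand total these are 5081 and 5160 CPM equivalent, close to Mir125a, which had 1.18 and 1.15 times as many counts in replicates 2 and 1. The mature strand let-7e-5p, shown with its seed in capitals, was found in the transcript of Mirlet7e and of no other miRNA gene.
let-7e-5p: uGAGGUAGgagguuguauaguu
At the 6 genes themselves the opposite-strand column was 0 in both libraries.

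**Figure D3:**
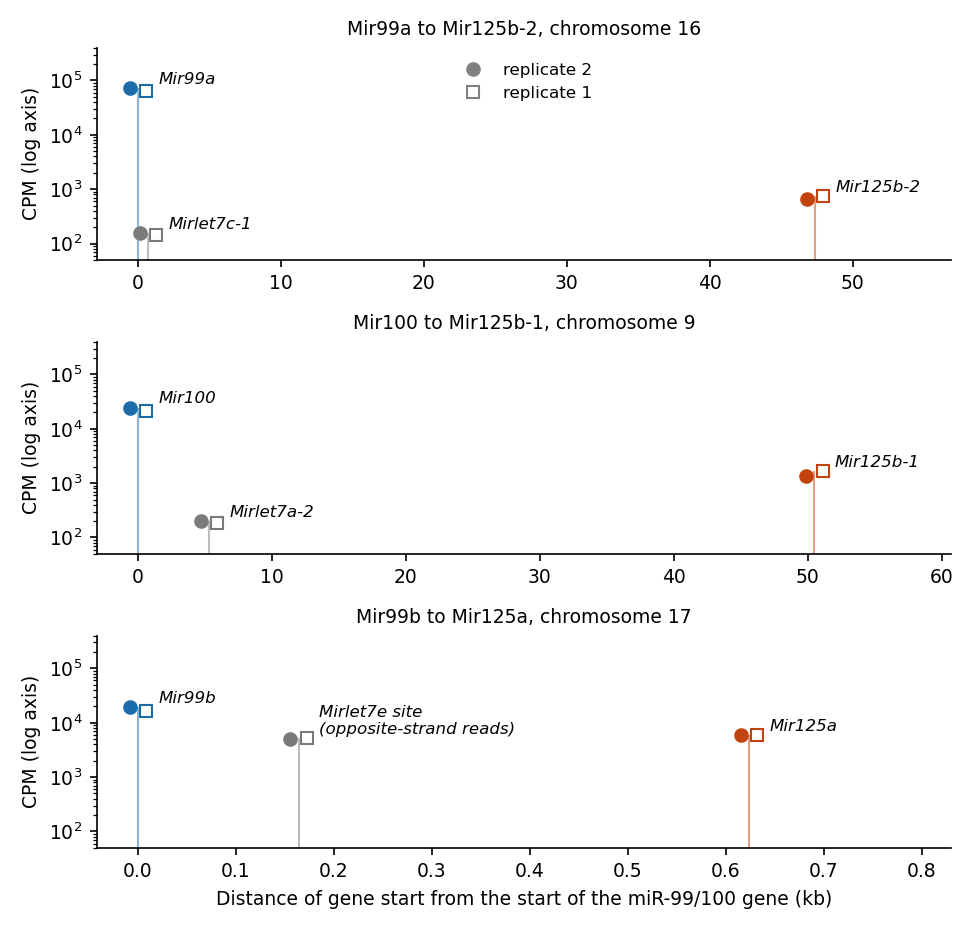
CPM on a log axis against distance in kb from the start of the miR-99/100 gene, 1 panel per locus; vertical lines mark gene starts, filled circles are replicate 2 and open squares replicate 1, set beside the line. On chromosomes 16 and 9 the levels of placed reads range from 71776 CPM down to 141 CPM. On chromosome 17 they stay between 5081 and 19527 CPM, with the Mirlet7e site read from the opposite-strand column.

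All 3 miR-99/100 genes were higher in replicate 2, while the miR-125 genes differed among themselves. The counts of each gene in the libraries were set against each other with a two-sided exact binomial test on library sizes scaled by TMM (trimmed mean of M-values), with Benjamini-Hochberg adjustment over 372 genes. It called 4 of the 6 genes higher in replicate 2, against 27.4% of all tested genes, and 1 lower, against 24.7%. In either direction 52.2% of tested genes were called. Of the 102 tested genes that averaged 1000 CPM or more, a class that holds 5 of the 6, 51 (50%) were called higher and 47 lower. The count of calls among the 6 therefore carries little by itself. The median log2 ratio of replicate 2 over replicate 1 was 0.23 for the 6 genes and 0.00 over all tested genes, and the median size regardless of sign was 0.26 and 0.24.

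Mir99a, Mir100 and Mir99b had log2 ratios of 0.31, 0.32 and 0.37 with counting standard errors of 0.0041, 0.007 and 0.0079, and all 3 were called higher in replicate 2. Mir125a was called higher at 0.14 (counting SE 0.013, exact binomial adjusted p = 1.44e-26). Mir125b-1 was called lower at -0.21 (counting SE 0.026, exact binomial adjusted p = 2.17e-15). Mir125b-2 did not pass the test, with a log2 ratio of -0.044 (counting SE 0.039, exact binomial adjusted p = 0.36). The let-7 genes of the same loci were called higher, Mirlet7c-1 at 0.25 (counting SE 0.086) and Mirlet7a-2 at 0.26 (counting SE 0.075).

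These directions depend in part on the scaling. TMM raises the median log2 ratio of all tested genes by 0.12 over plain library totals. With totals, Mir99a, Mir100 and Mir99b stayed higher in replicate 2 at 0.19, 0.20 and 0.24. Over all tested genes, 17.2% were called higher with totals and 53% in either direction. Of the 102 tested genes that averaged 1000 CPM or more, 37.3% were called higher with totals and 53.9% lower. Mir125a, at 0.019, and both let-7 genes, at 0.13 each, then did not pass the test, and Mir125b-2 joined Mir125b-1 as lower at -0.17 (exact binomial adjusted p = 4.17e-05), against 35.8% called lower.

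The log2 ratio within a locus does not depend on the library size. It was higher in replicate 2 than in replicate 1 by 0.36 on chromosome 16 (counting SE 0.039), by 0.54 on chromosome 9 (counting SE 0.027) and by 0.23 on chromosome 17 (counting SE 0.016). The placed counts of genes from one locus thus differed between the libraries by unequal amounts. On chromosomes 16 and 9 the miR-125 counts leave out reads lying wholly in the shared stretch, whose part in these differences was not tested. Among relatives outside the loci, Mir351 was called higher in replicate 2 at 0.42 and Mir10a lower at -0.62, each in the same direction with totals. Mir10b, at 0.11, turned to -0.017 with totals. Mesenchymal markers summed to 12119 CPM in replicate 2 and 17643 CPM in replicate 1, and epithelial markers to 67435 CPM and 52450 CPM in the same order. With TMM, the highest of each list were Mir214 (mean 13601 CPM), called lower at -0.42, and Mir203 (mean 28346 CPM), called higher at 0.88. Mir199b was also called lower (-0.50), while Mir199a-2 (-0.11) and Mir199a-1 (0.21) were not called. Mir429, Mir200b, Mir200c and Mir141 were called higher (0.12 to 0.31), Mir205 was called lower (-0.088), and Mir200a was not called (-0.07). The endothelial marker Mir126a stood at 54165 CPM in replicate 2 and 41674 CPM in replicate 1, and blood markers summed to 2096 CPM and 1614 CPM in the same order. Cartilage markers were closer, at 41703 CPM in replicate 2 and 43454 CPM in replicate 1. Skeletal muscle markers summed to 13348 CPM and 11712 CPM and neural markers to 700.2 CPM and 954 CPM in that order. The part of these cell types in the differences was not tested.

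**Figure D4:**
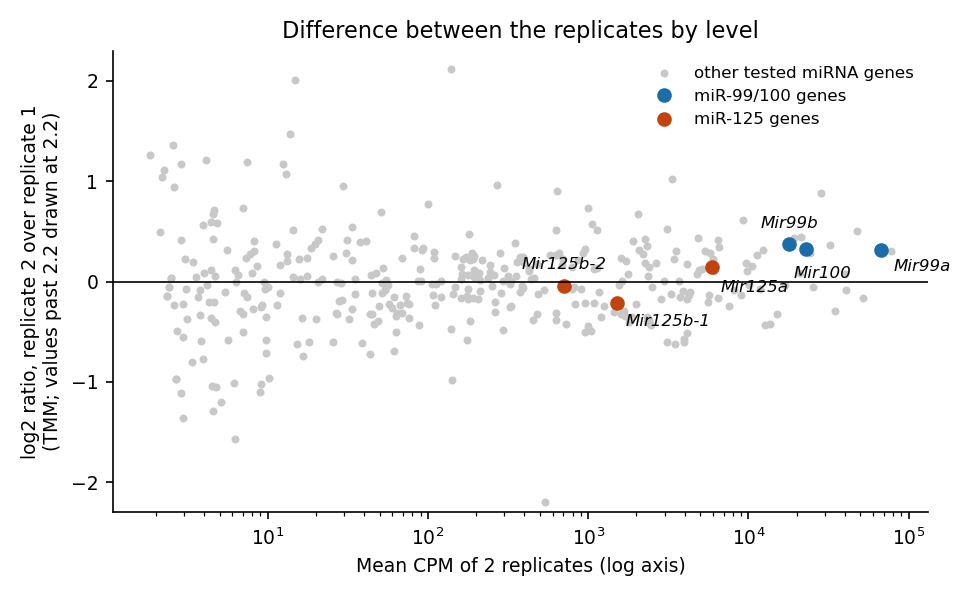
Log2 ratio of replicate 2 over replicate 1 (TMM scaling) against mean CPM on a log axis for the 372 tested genes, with the 6 genes named and coloured by family; values past 2.2 are drawn at 2.2. The miR-99/100 genes lie between 0.31 and 0.37, and the miR-125 genes spread from -0.21 to 0.14.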

How the data were processed

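The authors deposited raw counts of reads for each miRNA gene, 1 library per file, from alignments to assembly mm10 and the GENCODE M4 annotation, per the labels and the deposited metadata. The sources used here do not name the aligner, its settings or the trimming. The layout, with 4 summary rows and columns for both strands, the gene strand and the opposite strand, is that of STAR gene counts of uniquely placed reads. The summary rows stayed out of library sizes and tests. They hold unmapped reads (17.6% and 16.6% of all reads in replicates 2 and 1), reads at several positions (28.5% and 29.8%) and reads outside miRNA genes (2.38% and 3.00%).

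Symbols came from GENCODE M21 by identifier, for 1894 of 1973 rows. CPM used the gene-strand total of each library, shown as mean and SD of 2 replicates, with Wilson intervals (counting error only, since molecular identifiers are not described). The labels call the samples biological replicates. Genes with a mean of at least 10 counts were tested with an exact binomial test (scipy 1.17.1) on TMM sizes of edgeR 4.0.16, with a prior of 0.5 counts for log2 ratios and a threshold of 0.05. The test was also run on simulated counts that held counting error only and used library totals. It therefore does not cover other differences between real libraries. Alternatives included totals, DESeq2 1.42.0 size factors and other filters. Named genes are the 6 members, the let-7 genes of their loci, Mir10a and Mir10b, genes sharing a 5p seed, and the neighbours of each member in mean CPM. The members, lists and tests were chosen with earlier results of these data known.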

Additional observations from a re-analysis of the deposited data

Results flagged for a closer look

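The column of reads on the opposite strand, which no level of the 6 genes uses, held a signal at the Mirlet7e site between Mir99b and Mir125a. It was 5120.5 CPM equivalent on average (5081 in replicate 2 and 5160.4 in replicate 1), against a limit of 3 counts that a count of 0 allows. The row belongs to Gm25927 on the opposite strand of chromosome 17, from 17830343 to 17830459, and Mirlet7e lies within it at 17830352 to 17830444.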

How the results depend on the processing

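Levels scaled to all reads instead of miRNA counts were lower by construction: 32988 for Mir99a, 11236 for Mir100, 8806 for Mir99b, 2913 for Mir125a, 739 for Mir125b-1 and 343 for Mir125b-2. The sums were then 33330.3 for the locus on chromosome 16, 11975 on chromosome 9, 11719 on chromosome 17 and 57025 for all 6 genes. Without the highest gene in the total, Mir125a stood at 6465 CPM, Mir125b-2 at 760.4 and the chromosome 9 sum at 26571, and with the unstranded column Mir125a stood at 5701, each more than 1 SD from its main value. In 8 settings of the replicate comparison, Mir99a, Mir100, Mir99b and Mir125b-1 kept direction and call. Mir125a fell below the threshold with totals (0.019), where Mir125b-2 passed it (-0.17), so that 2 genes instead of 1 were called lower. Mir125b-2 turned to 0.013 with DESeq2 size factors. The ratios within loci moved by less than 1 SD with the unstranded column and with a prior of 5 counts, and leaving out a replicate only gives the value of the other. No paired analysis was possible because there is 1 group. The comparison of the replicates cannot be repeated without either of them. Neither depth nor filter limits these 6 genes, whose lowest count is 2019, but the loss of reads at several positions limits both Mir125b genes.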
